A study of Mus musculus with 11 samples.

Results

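The sarcomeric myosin heavy chain genes Myh1, Myh2, Myh3, Myh4, Myh6, Myh7, Myh8 and Myh13 were read in RNA-seq libraries of mouse eyes as a measure of which kinds of striated muscle fibre had come along with the tissue. These 8 genes of the 38393 in the files were selected on their measured levels, because muscle RNA was known to differ between the libraries, so the levels themselves are given as a description. Of the 8 members, 7 reached 1 CPM (counts scaled to a common library total) in at least 5 libraries and entered the test across genes, and Myh6 did not. The libraries came from whole eyes of C57BL/6 mice of 1 to 2 months after removal of the lens and the cornea, with retina, pigment epithelium, choroid, sclera and ciliary body left in. The 5 wild-type (WT) libraries came from miR-211+/+ mice, and the 6 knockout (KO) libraries from miR-211-/- mice, a line on C57Bl/6J by the methods that lacks the stretch of the genome holding pre-miR-211. By the methods, all KO mice were male and the WT mice were of both sexes, so sex and genotype differ together. Neither the labels nor the methods describe how far the eye muscles were trimmed. The libraries held 20282241 to 36317673 assigned reads, and the members took 0.061% to 0.468% of them. In such bulk tissue, fewer muscle fibres and less RNA per fibre cannot be told apart.

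Myosin heavy chain is the motor of the thick filament, and each striated fibre type is known by the heavy chain it makes. In adult limb muscle the fast chains are Myh4 (type IIB), Myh1 (type IIX) and Myh2 (type IIA), and the slow chain is Myh7, which also serves the ventricle of the heart, while Myh6 is the atrial chain. Myh3 (embryonic) and Myh8 (perinatal) mark developing or regenerating limb muscle, but the muscles that turn the eye keep them in adult life, beside Myh13, a very fast chain found in the extraocular muscles and hardly anywhere else.

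In the GRCm38 build, 6 members lay head to tail on the plus strand of chromosome 11 over 293 kb, in the order Myh3, Myh2, Myh1, Myh4, Myh8 and Myh13. Myh13 was the last of the row, at chr11:67321658-67371586, and at 49.9 kb the longest gene of the 8. The cardiac pair lay on the minus strand of chromosome 14 over 52.7 kb, with Myh6 at chr14:54941921-54966927 and Myh7 at chr14:54970684-54994626. The coding sequences were 5805 to 5826 bases long. Across the chromosome 11 row, coding identity ran from 77.4% between Myh3 and Myh13 to 91.0% between Myh1 and Myh2, and Myh6 and Myh7 were 91.5% identical. Such likeness matters for a count per gene, since a read of 100 bases may fall where 2 genes do not differ. Of all stretches of 100 bases in the messenger RNA, 3.45% of those of Myh13 and 3.85% of those of Myh4 also stood unchanged in another member, against 9.73% for Myh1, 9.17% for Myh2, 11.4% for Myh6 and 11.2% for Myh7. The counts were shared out by expectation maximisation in RSEM. Myh1, Myh2, Myh6 and Myh7 thus had a larger share of such stretches than Myh13, but how certain the split was for any member was not tested.

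The members can be told apart in stretches like the following, which is shown because it is the least alike of the 1199 in-frame coding windows of 60 bases that had no gap and lay within 1 exon in all 6 genes of the row. Mean identity between the genes was 64.0% in this window, against a median of 84.8% over all such windows. Capitals mark bases that differ from Myh4, and all sequences are from the Gencode M21 transcripts, plus strand.
Myh3: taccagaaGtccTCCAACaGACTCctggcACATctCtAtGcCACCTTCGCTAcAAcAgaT
Myh2: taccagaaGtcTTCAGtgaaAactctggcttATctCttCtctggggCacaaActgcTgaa
Myh1: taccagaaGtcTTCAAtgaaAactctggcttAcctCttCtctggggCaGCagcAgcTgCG
Myh4: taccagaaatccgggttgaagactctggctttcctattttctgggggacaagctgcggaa
Myh8: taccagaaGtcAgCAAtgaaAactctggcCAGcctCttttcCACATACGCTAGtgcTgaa
Myh13: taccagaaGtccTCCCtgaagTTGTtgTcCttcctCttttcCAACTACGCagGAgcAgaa
The window stood at chr11:67248692-67248751 in exon 15 of Myh4 and at chr11:67342487-67342546 in exon 15 of Myh13. Against Myh4, the adult fast chains differed least, with 14 changed bases in Myh2 and 17 in Myh1. Myh8 had 23 and Myh13 24, and Myh3 had 34.

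Each library also bears on the genotype itself. The precursor Mir211 was listed at 0 in all 11 libraries, as hairpins are not kept by this kind of library, so the deletion could not be checked from it, and its host gene Trpm1 was at 331 to 496 CPM in WT and 413 to 465 CPM in KO. Xist, the RNA of the inactive X chromosome, was at 796 to 1636 CPM in 3 WT libraries and at 0.451 to 1.30 CPM in the other 8. The strand holding the mature miRNA, miR-211-5p, reads as follows in RefSeq (chr7:64205831-64205852, plus strand), shown because its loss is the only designed difference between the groups, with the seed, bases 2 to 8, in capitals.
miR-211-5p: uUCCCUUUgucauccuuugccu
The complement of the seed, AAAGGGA, was searched on the sense strand of the longest annotated 3' untranslated region of each gene. It was found in 1 of the 8 members, Myh13, at bases 47 to 53 of 87, and in 14.5% of 21589 genes with such a region, or 7.37% of the 13659 whose region was within the members' range of lengths. Myh8 alone, at 1648 bases, set the top of that range, and the other 7 members had 63 to 132 bases. The share is thus not matched to a region as short as that of Myh13.
Myh13: gggagagcAAAGGGAgacttgag
Capitals mark the match. No match in the other 7 says only that these letters are not in the annotated region, and a match is not a site shown to be used.

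The 250 bases before the RefSeq start are shown for Myh3 and Myh4, the least and the most variable of the members on this row other than Myh13, both on the plus strand. The first is at chr11:67078050-67078299 and the second at chr11:67237562-67237811. Capitals mark CANNTG, the E-box that muscle regulators of the MyoD family can bind and that reads alike on both strands, and TATAAA on either strand.
Myh3: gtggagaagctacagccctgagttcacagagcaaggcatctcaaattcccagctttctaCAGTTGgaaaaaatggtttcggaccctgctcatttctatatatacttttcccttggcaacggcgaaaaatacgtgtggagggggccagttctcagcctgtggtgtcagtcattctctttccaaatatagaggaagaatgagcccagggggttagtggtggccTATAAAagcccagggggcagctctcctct
Myh4: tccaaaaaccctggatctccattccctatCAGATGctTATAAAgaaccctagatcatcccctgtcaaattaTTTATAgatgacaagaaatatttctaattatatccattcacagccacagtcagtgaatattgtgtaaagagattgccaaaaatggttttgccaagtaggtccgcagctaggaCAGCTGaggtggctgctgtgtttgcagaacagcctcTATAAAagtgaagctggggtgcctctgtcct
A TATAAA began 29 bases before the start of Myh3, 31 before that of Myh4 and 32 before that of Myh1, and no TATAAA stood in the windows of Myh2, Myh6, Myh7 and Myh13. Myh13 had 2 copies of CANNTG and Myh1 and Myh2 had 0. The Myh13 window, at chr11:67326853-67327102, overlapped exons of 2 annotated transcripts. It and the Myh6 window lay wholly within the Gencode genes, whose starts are further upstream than the RefSeq starts. Over 32817 promoters, 66.2% held CANNTG and 12.4% held TATAAA on either strand.

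Fast chains made up most of the myosin message. Per length of transcript (FPKM, fragments per kilobase at a common library total), Myh4 was the highest member with a mean of 150.5 ± 109.7 (SD, n = 11), followed by Myh1 with 110.5 ± 93.6. Myh3 stood at 49.8 ± 21.4 and Myh2 at 44.4 ± 31.0. Myh13 averaged 25.0 ± 26.1, with an SD as large as its mean. Myh7 at 6.17 ± 4.29 and Myh8 at 5.91 ± 5.43 were lower, and Myh6 was near 0 at 0.154 ± 0.168. The order of neighbours in this row was not kept in every eye. Myh4 was above Myh1 in 9 of 11 libraries, Myh1 above Myh3 in 9, Myh3 above Myh2 in 9 and Myh7 above Myh8 in 8, and the means of each pair differed by less than the larger of their SDs. Myh13 exceeded Myh7 in 8 of 11 libraries, with a ratio between 0.133 and 8.16.

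**Figure D1:**
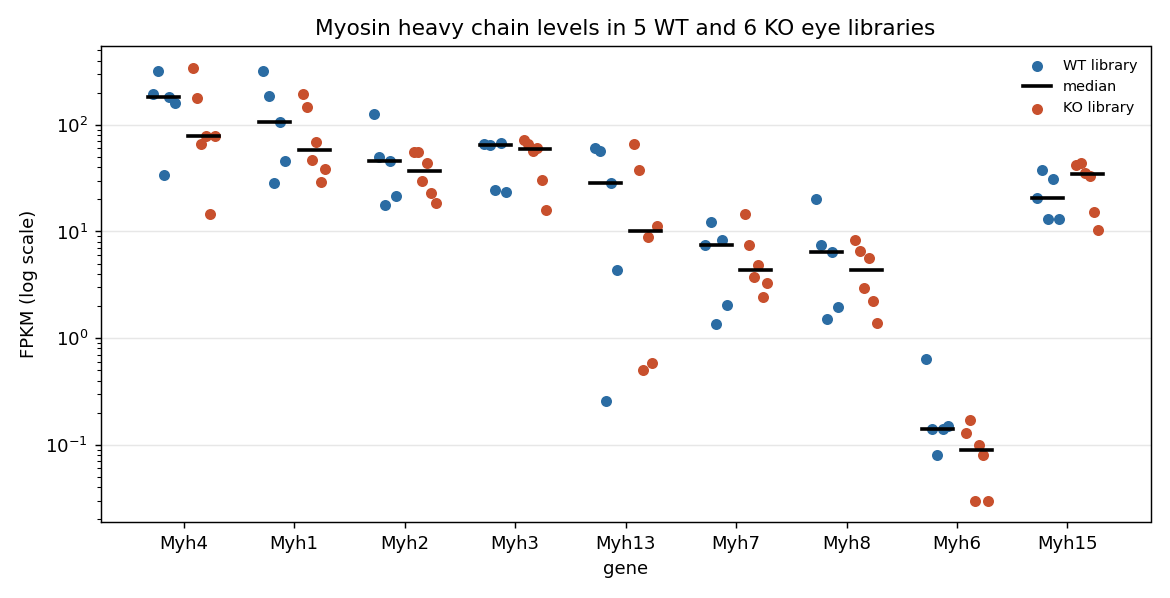
FPKM (log scale) of the 8 members and of Myh15 in each WT (blue) and KO (orange) library, with a black bar at the median of each genotype. Myh13 ran from 0.26 to 65.5, and in both genotypes its points spread further apart than those of any other gene shown.

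Myh4, the chain of the fastest limb fibres, stood at 195, 322, 33.9, 184 and 160 FPKM in WT replicates 1 to 5. In the KO libraries its lowest, median and highest values were 14.7, 78.7 and 344. The highest value of all was in KO replicate 1 and the lowest in KO replicate 5, and the genotypes overlapped throughout. Myh1 was at 322, 185, 28.6, 105 and 45.9 FPKM in WT, and between 29.4 and 196 with a median of 57.8 in KO. WT replicate 1 was the one library led by Myh1, with a ratio of Myh4 to Myh1 of 0.606. Myh2 ran over 17.8 to 126 FPKM in WT and over 18.5 to 55.9 in KO. All 3 adult fast chains were high in WT replicates 1 and 2 and in KO replicate 1, and low in WT replicate 3 and KO replicate 5.

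The slow chain Myh7 and the cardiac chain Myh6 stayed low. Myh7 was at 7.43, 12.2, 1.37, 8.41 and 2.03 FPKM in WT, with a lowest, median and highest of 2.45, 4.34 and 14.5 in KO. Its level was between 0.0127 and 0.166 of that of Myh4 in the same library, so Myh7 message was the smaller in every eye. Myh15, a slow chain outside the members, was above Myh4 only in KO replicate 5, at 15.2 against 14.7 FPKM. Myh6 had from 4 to 108 reads in a library. The 108 reads were in WT replicate 1, at 3.83 CPM, while the other 4 WT libraries lay between 0.432 and 0.912 CPM and the KO libraries between 0.156 and 1.04 CPM. Since 11.4% of its windows also stood in another member, whether some of so few reads came from Myh7 was not tested.

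Of the developmental chains, Myh3 was among the abundant members and Myh8 among the low ones. Myh3 reached 65.9, 64.5, 24.6, 68.0 and 23.2 FPKM in WT, and 15.9, 59.1 and 71.3 as the lowest, median and highest in KO. It varied least among the members, with a ratio of the highest to the lowest library of 4.48. In KO replicate 5, the library with the least Myh4, Myh3 was the leading chain with 29.5% of the summed FPKM of the 8 members. Myh8 was lower, at 20.3, 7.55, 1.50, 6.49 and 1.95 FPKM in WT and from 1.39 to 8.38 in KO.

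Myh13 behaved unlike its neighbours in size of variation. The WT libraries had 60.6, 57.2, 0.26, 28.3 and 4.35 FPKM in replicates 1 to 5, and the KO libraries had 65.5, 37.4, 0.50, 8.87, 0.58 and 11.3 in replicates 1 to 6. Thus 3 libraries, WT replicate 3 and KO replicates 3 and 5, held only 26, 54 and 59 reads of it, while 4 libraries held between 6903 and 8199. The libraries at each extreme came from both genotypes. The 4 high ones, WT replicates 1 and 2 and KO replicates 1 and 2, were all of the first library series, defined below. KO replicate 3, of the same series, was among the 3 low ones. In the second series the most was 2797 reads, in WT replicate 4. The part of the series in the Myh13 level was not tested. From the lowest to the highest, Myh13 spanned 309-fold in CPM and 252-fold in FPKM, against 24.9-fold for Myh4, 11.8-fold for Myh1 and 5.08-fold for Myh3 in CPM. The low end of that span rests on 26 reads. Myh13 shares identical runs of up to 213 bases with Myh8 and 167 with Myh3. Whether some of so few reads came from these genes was not tested. The CPM to FPKM conversion was steady for Myh4 (implied transcript length of 5959 to 5970 bases), but for Myh13 the implied length ran from 4195 bases in KO replicate 5 to 5941 bases in WT replicate 5, so the mix of Myh13 transcripts assigned by RSEM differed between libraries and its FPKM is the less certain scale.

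The composition of the 8 chains differed widely between eyes. Myh4 had a mean share of 37.1% ± 13.0 of the summed FPKM (SD, n = 11), Myh1 of 26.3% ± 5.67, Myh3 of 16.0% ± 8.07, Myh2 of 12.8% ± 4.70 and Myh13 of 4.64% ± 3.45. Myh7 and Myh8 took 1.64% ± 0.474 and 1.47% ± 0.572. The chain with the largest share was Myh4 in 9 libraries, Myh1 in 1 and Myh3 in 1. By genotype, Myh13 had 4.81% ± 3.61 in WT (n = 5) and 4.49% ± 3.65 in KO (n = 6), and Myh4 had 41.0% ± 14.4 and 33.9% ± 12.0, which are differences smaller than the spread within either genotype. The share of Myh7 was 1.32% ± 0.485 in WT and 1.90% ± 0.287 in KO, a larger step beside its spread, with ranges that overlapped (0.783% to 1.88% and 1.50% to 2.39%). Within libraries the Myh4 share ran from 14.3% in KO replicate 5 to 61.8% in WT replicate 5, where the slow chain Myh7 had its lowest share, 0.783%. The share of Myh13 was 6.34% or more in 6 libraries, and 0.241%, 0.241% and 0.565% in WT replicate 3, KO replicate 3 and KO replicate 5. In those same 3 libraries Myh3 took 22.7%, 27.5% and 29.5%, and only KO replicate 4, with 22.5%, had a like share of it.

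**Figure D2:**
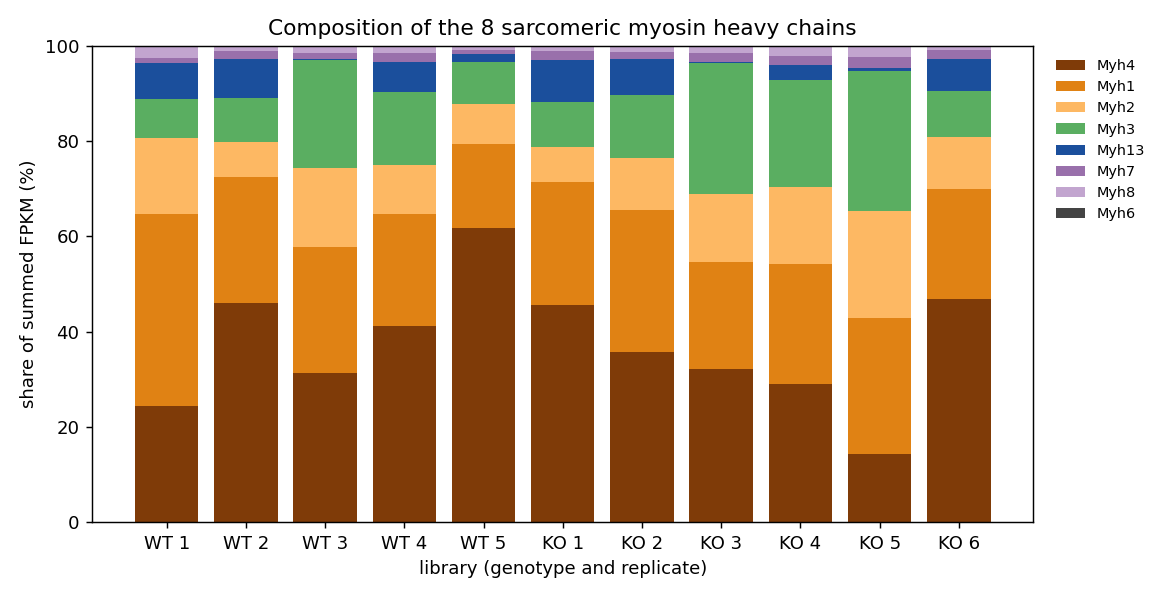
Share of the summed FPKM (%) of the 8 chains in each library, stacked by gene. Myh4 was the largest block in 9 of 11 libraries, and the Myh13 block all but vanished in WT replicate 3, KO replicate 3 and KO replicate 5.

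To relate each chain to the amount of striated muscle, the summed CPM of 14 sarcomere genes that fast and slow fibres share, such as Acta1 (skeletal actin), Ttn (titin) and Ckm (muscle creatine kinase), was taken as the common sarcomere level. That level ran from 784 to 5938 CPM in WT and from 713 to 5047 CPM in KO, an 8.33-fold range, and the 8 members together ran from 583 to 4680 CPM. The list holds no member, but all are muscle genes measured in the same libraries. Since the members were chosen with the spread of muscle RNA known, their relation to this level is given as a description, with no p. Over the 11 libraries, Pearson r between log2 levels was 0.983 for Myh1, 0.919 for Myh4, 0.910 for Myh13, 0.893 for Myh8, 0.890 for Myh2 and 0.890 for Myh7, then 0.734 for Myh3 and 0.721 for Myh6. Spearman's rho lay between 0.755 for Myh3 and 0.964 for Myh1. Without WT replicate 1 and KO replicate 1, the libraries farthest from the median of the common level, r was 0.620 for Myh6, 0.692 for Myh3, 0.893 for Myh13 and 0.977 for Myh1. Within the 6 KO libraries r was 0.857 for Myh13 and 0.665 for Myh3, and it was 0.895 and 0.641 within 6 libraries that share one naming in headers of a table supplied with the study, called the second series here (WT replicates 3 to 5 and KO replicates 4 to 6). The other 5 libraries, the first series, are too few for an r. For Myh6, r was 0.633 without WT replicate 1.

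The relation was positive for all 8 members and its slopes were unlike, a slope being the change in log2 CPM for each unit of log2 common sarcomere level. A slope of 1 means that a gene keeps pace with the sarcomere genes. Myh4 at 1.22, Myh1 at 1.15, Myh8 at 1.05 and Myh7 at 0.935 were near it, while Myh2 at 0.739, Myh6 at 0.743 and Myh3 at 0.565 were below. Myh3 had 0.118 within the first series and 0.725 within the second. Within the first and the second series of libraries, Myh6 had slopes of 1.37 and 0.543 and Myh4 of 0.985 and 1.70, so where these stand against 1 depended on the series. Myh13 had a slope of 2.59, and of 3.40 and 3.06 within the series. In the first series, KO replicate 3 stood apart at a common sarcomere level of 1338 CPM, with 2.33 CPM of Myh13. The other libraries of that series had levels of 3251 to 5938 CPM, with 208 to 347 CPM of Myh13. Slopes within the first series, for Myh13 and the other members, thus rest largely on that 1 library. Leaving out each library in turn gave 2.37 to 2.79 for Myh13, 1.03 to 1.40 for Myh4 and 0.482 to 0.617 for Myh3, so these ranges did not overlap, and the difference between slopes was not tested. Of the 15767 genes tested, 1 had a steeper slope than Myh13 (Pck1, at 2.65, an enzyme of glyceroneogenesis in fat cells, named after its value was seen), and the median slope over all of them was -0.004. Among the 14 sarcomere genes the slopes ran from 0.537 to 1.22, and among the 12 fast fibre partners from 0.865 to 1.15.

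**Figure D3:**
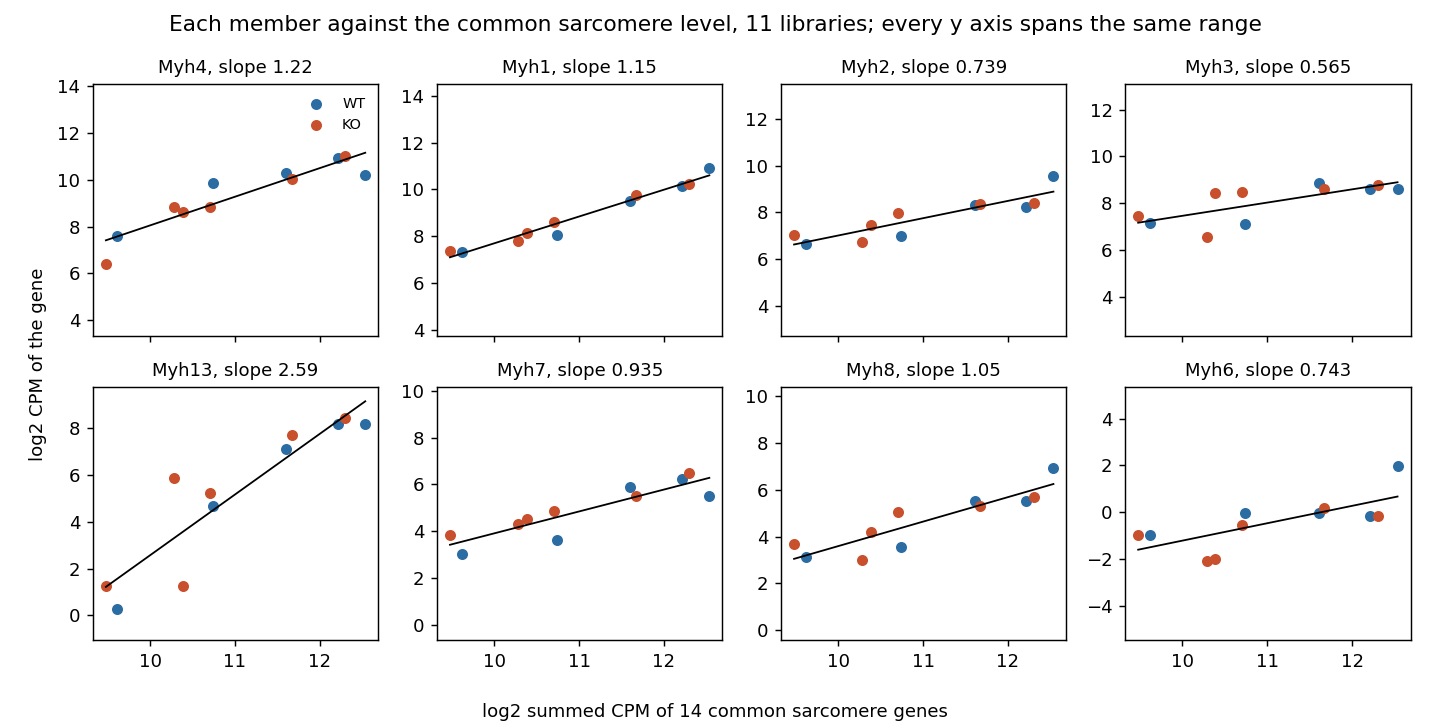
Log2 CPM of each member against the log2 summed CPM of the 14 common sarcomere genes in 5 WT (blue) and 6 KO (orange) libraries, with the least-squares line and its slope, every y axis covering the same range. The line is steepest for Myh13, at 2.59, and flattest for Myh3, at 0.565.

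At a like amount of muscle, Myh13 was present in KO replicate 6 and nearly absent in KO replicate 3. KO replicates 3 and 6 had common sarcomere levels of 1338 and 1246 CPM, but Myh13 was at 2.33 and 59.1 CPM in them, while Myh3 went the other way, at 343 and 92.8 CPM. KO replicate 3 is of the first series and KO replicate 6 of the second. Myh4 was close in both, at 399 and 457 CPM. Other libraries with like common sarcomere levels were closer to each other in Myh13. WT replicate 5 and KO replicate 4, at 1706 and 1666 CPM, had 25.45 and 37.4 CPM of Myh13. WT replicate 4 and KO replicate 2, at 3117 and 3251 CPM, had 140 and 208 CPM of it. WT replicate 2 and KO replicate 1, at 4734 and 5047 CPM, had 287 and 347 CPM of it. The ratio of Myh13 to Myh3 in FPKM was 0.00876 in KO replicate 3 and 0.710 in KO replicate 6. Over all libraries that ratio spanned 105-fold, up to 0.919 in WT replicate 1, and reached 0.886 in WT replicate 2 and 0.918 in KO replicate 1. For comparison, Myh1 to Myh2 spanned 2.89-fold and Myh8 to Myh2 2.14-fold. The fast pair Myh4 and Myh1 shifted over 6.97-fold, from 0.501 in KO replicate 5 to 3.49 in WT replicate 5.

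Myh3 kept company with a chain outside the selected set. Myh15, a slow myosin known from the orbital layer of the eye muscles and from muscle spindles, stood at 20.8, 38.0, 13.0, 30.9 and 13.1 FPKM in WT, with 10.2, 34.2 and 43.8 as lowest, median and highest in KO. The ratio of Myh3 to Myh15 stayed between 1.49 and 3.17, a 2.13-fold range. The Pearson r of log2 CPM between Myh3 and Myh15 was 0.933 over the 11 libraries, given as a description since they share the libraries. It was 0.535 between Myh3 and Myh13 and 0.495 between Myh13 and Myh15. Other members lay nearer, with r between Myh3 and Myh8 at 0.876, Myh2 at 0.843, Myh7 at 0.825 and Myh1 at 0.787. Between Myh15 and Myh7 r was 0.81, and the pair Myh2 and Myh8 was closer still than Myh3 and Myh15, at 0.993. In the 3 libraries with little Myh13, Myh15 was at 13.0, 35.1 and 15.2 FPKM, within the range of the others.

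**Figure D4:**
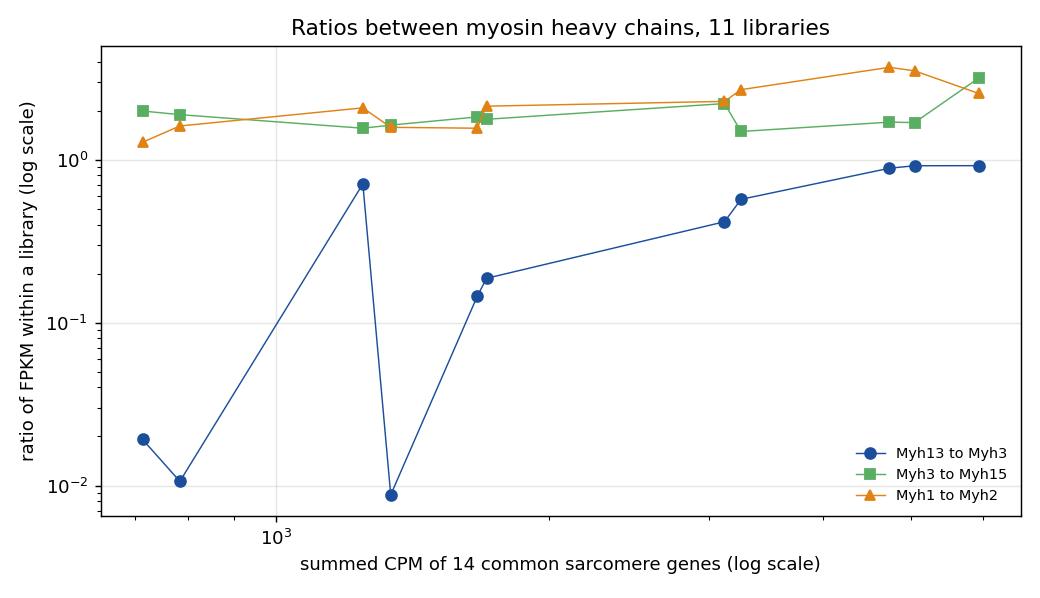
Ratio of FPKM within a library (log scale) for Myh13 to Myh3, Myh3 to Myh15 and Myh1 to Myh2, against the summed CPM of the 14 common sarcomere genes (log scale) in 11 libraries. Myh3 to Myh15 and Myh1 to Myh2 stay between 1.28 and 3.69, while Myh13 to Myh3 runs from 0.00876 to 0.919.

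The genes whose log2 CPM followed Myh13 most closely among 15760 non-members were Fbxo40 (r = 0.964), Klhl31 (r = 0.947), Timp4 (r = 0.943), 2310002L09Rik (r = 0.939) and Ckmt2 (r = 0.935), over the same 11 libraries and with no test. Fbxo40 and Klhl31 are striated muscle genes of the ubiquitin ligase and kelch families, and Ckmt2 is the mitochondrial creatine kinase of sarcomeres. Fbxo40 ranged over 2.25 to 23.8 CPM, so that even the nearest gene moved over a far smaller range than Myh13. The summed CPM of all 8 members was followed best by Srl (r = 0.997), a sarcoplasmic reticulum protein, then by Tmem182 (r = 0.996), Hfe2, Ttn and Tbx15 (r = 0.995 each). Tbx15, a transcription factor of fast fibres, ran from 6.87 CPM in WT replicate 3 to 78.7 CPM in WT replicate 1.

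Fat cell RNA varied along with Myh13 in part. The summed CPM of 8 adipocyte markers ran from 13.9 to 448 in WT and from 13.0 to 234 in KO, and 7 of them passed the filter, with a median slope on the common sarcomere level of 1.85 (range 0.406 to 2.06). Adipoq was at 41.5 CPM in WT replicate 1, 25.4 in WT replicate 2 and 19.4 in KO replicate 1, the 3 libraries with the highest Myh13, and at 0.346, 0.690 and 0.865 CPM in WT replicate 3, KO replicate 3 and KO replicate 5, where Myh13 was lowest. In KO replicate 6, however, Myh13 was at 59.1 CPM with Adipoq at 0.545 CPM. KO replicate 4 likewise had 37.4 CPM of Myh13 with 0.863 CPM of Adipoq, and KO replicate 2 had 208 and 2.97 CPM. Corneal and conjunctival markers were at 1558 to 9309 CPM in sum, and lens markers were at 86014, 24114 and 3231 CPM in WT replicate 4 and KO replicates 3 and 6 against 5.58 to 70.6 CPM elsewhere. The part of these tissues in the myosin levels was not tested.

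Against this spread, no member was called between KO and WT. The edgeR quasi-likelihood test called 0 of the 7 members tested at an adjusted p under 0.1, and the share called over all 15767 genes was 0%, with 446 genes at an unadjusted p under 0.05, none of them a member. The likelihood-ratio test called 1 gene, Xist, and DESeq2 called 2, Xist and Pear1, which are named here because they were seen to pass, and neither is a member. All 7 log2 fold changes of KO against WT were below 0, with a median of -0.53, beside a median of -0.52 for the 14 common sarcomere genes, which were also all below 0, and of 0.003 over all genes tested.

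Myh13 had the widest interval. Its log2 fold change was -0.45 with a standard error of 1.29 and a 95% interval of -2.97 to 2.07 (adjusted p = 0.995, quasi-likelihood test with Benjamini-Hochberg adjustment), so that a fall and a rise of 2 log2 units both lay within it. Myh8 had the largest change of the 7, -0.80 with a standard error of 0.67, and Myh1 was at -0.68 with 0.67. Myh4 was at -0.54 (0.70), Myh2 at -0.53 (0.50), Myh7 at -0.13 (0.61) and Myh3 at -0.05 (0.44), where the value in parentheses is the standard error. With the filter lowered to 1 count in any library, Myh6 also entered and had a log2 fold change of -1.35. Its unadjusted p was 0.0445 from edgeR's quasi-likelihood fit across genes, and its adjusted p was 0.897. At that filter 809 of 25763 genes had an unadjusted p under 0.05. Myh6 was at 3.83 CPM in WT replicate 1, against 0.432 to 0.912 CPM in the other WT libraries and 0.156 to 1.04 CPM in KO. The narrowest interval, that of Myh3, ran from -0.91 to 0.82. With the common sarcomere level as a covariate, which was added after the data had been seen, Myh13 came to 0.98 and Myh7 to 0.50, and 6 of the 7 members turned above 0, again with 0 called. Leaving out WT replicate 1 brought Myh13 to -0.05 and Myh1 to -0.13, and leaving out KO replicate 1 brought them to -1.25 and -1.11. Myh13 was at -0.64 within the first series (WT replicates 1 and 2 with KO replicates 1 to 3) and at -0.74 within the second.

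**Figure D5:**
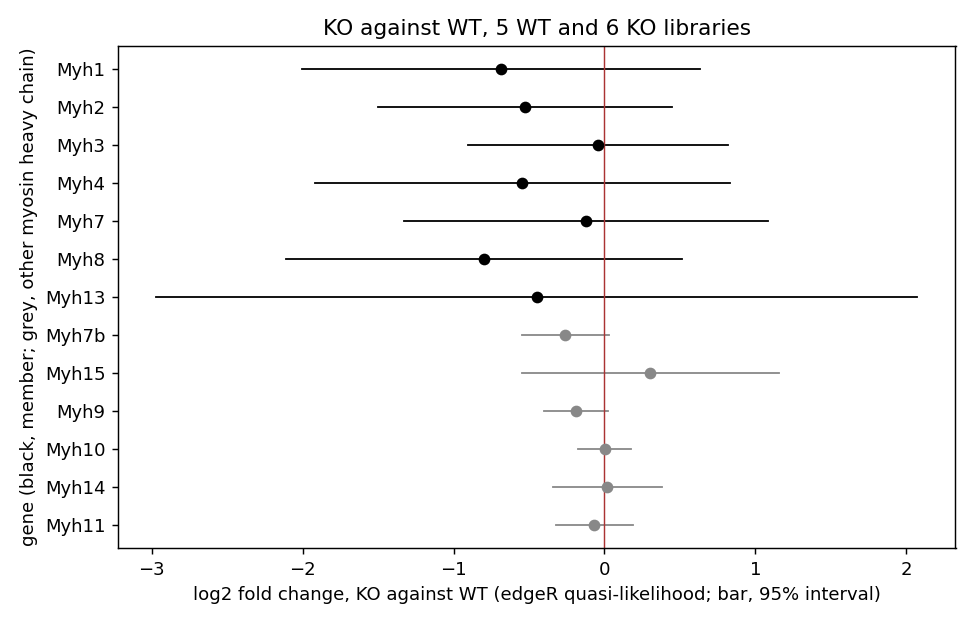
Log2 fold change of KO against WT for the 7 members tested (black) and the 6 other myosin heavy chains (grey), with bars of the 95% interval from standard errors derived from edgeR's F statistic. Every bar crosses 0, and the bar of Myh13, from -2.97 to 2.07, is the longest.

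The heavy chains of non-sarcomeric and smooth muscle kind were steady in comparison. Myh9, Myh10 and Myh14, the non-muscle chains, averaged 26.7 ± 2.89, 29.6 ± 3.68 and 23.9 ± 5.16 FPKM (SD, n = 11), and Myh11, the smooth muscle chain, 15.3 ± 2.14. Myh7b, a sarcomeric relative known from slow tonic eye muscle fibres and also from brain and retina, was at 4.23 ± 0.878 FPKM and had a Pearson r of -0.0395 with Myh13. These chains spanned at most 1.97-fold between libraries in CPM, except Myh15 with 4.38-fold. Their log2 fold changes ran from -0.26 for Myh7b to 0.30 for Myh15, and 0 of 6 were called.

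The partners of myosin in the sarcomere, which also come in fast and slow forms, were read from lists drawn up by their textbook roles. All 12 fast fibre partners passed the filter, led by Tnnt3 (fast troponin T) at 550.0 ± 418.5 FPKM, Myl1 (fast light chain) at 545.5 ± 374.8, Mylpf at 509.4 ± 378.2 and Atp2a1 (the fast calcium pump) at 413.3 ± 291.2, and their slopes had a median of 1.08. Of 14 slow and cardiac partners, 12 passed, with Mybpc1 at 59.3 ± 34.1 FPKM, Tnnt1 at 44.2 ± 13.7, Tnni1 at 16.6 ± 8.04 and Tnnc1 at 16.5 ± 7.40, and their median slope was 0.675. Between KO and WT 0 of these 24 partners were called, with a median log2 fold change of -0.51 for the fast and -0.11 for the slow list.

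Muscle fibres meet their nerve at the endplate, where the acetylcholine receptor is made. Chrna1, the alpha subunit of the acetylcholine receptor, ran from 1.81 CPM in WT replicate 3 to 14.3 CPM in WT replicate 1, with a slope of 0.949, next to 0.935 for Myh7 and 1.05 for Myh8. Chrne, the subunit that replaces the fetal one in adult endplates, did not pass the filter, and ran from 0.0432 CPM in WT replicate 3 to 5.82 CPM in WT replicate 1, which is 1 read against 164 reads. WT replicate 2 held 3.36 CPM of it and KO replicate 1 held 3.72 CPM, against 0.129 and 0.0786 CPM (3 and 2 reads) in KO replicates 3 and 5. WT replicates 1 and 2 and KO replicate 1 thus had the most Chrne and the most Myh13. They also had the highest common sarcomere levels, at 5938, 4734 and 5047 CPM. KO replicate 4, with 37.4 CPM of Myh13, held only 0.129 CPM (3 reads) of Chrne. Chrnb1 spanned 3.03-fold and Dok7 2.40-fold. None of the 5 endplate genes tested was called between KO and WT.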

How the data were processed

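Total RNA of 11 eyes was prepared with TruSeq RNA reagents, a kit that does not keep strand, and sequenced as paired reads of 100 nt. The authors deposited for each library RSEM (version 1.2.19) expected counts per gene, quantified against Gencode M4 (GRCm38) gene models, and the FPKM derived from them. The expected counts were rounded and tested in edgeR 4.0.16 (quasi-likelihood, TMM, at least 1 CPM in at least 5 libraries, Benjamini-Hochberg over 15767 genes, threshold 0.1). Standard errors are the absolute log2 fold change divided by the square root of the quasi-likelihood F statistic. The 95% intervals use the normal quantile, which makes them somewhat narrow for so few libraries. DESeq2 1.42.0 and the likelihood-ratio test served as alternatives. CPM are TMM-scaled, and log2 CPM used a prior count of 2. Levels between genes were compared in deposited FPKM only. Symbols came from Gencode M21 (95.4% of 38393 genes matched), as did coordinates and coding sequences, which were aligned with MAFFT 7.526. Permutation p planned for the relations with the common sarcomere level are not given, since the members were chosen on their levels. Scripts were tested on simulated data. The members, gene lists and tests were chosen with earlier results of these data known. Named are the members, the other myosin heavy chains, up to 4 genes of highest mean FPKM per list and those closest to Myh13 or the members' sum. The library series came from sample headers of a table supplied with the study, matched by their values. The methods call the libraries biological replicates, and p-values set the difference between genotypes against the spread between libraries.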

Additional observations from a re-analysis of the deposited data

Results flagged for a closer look

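Among 32 groups of values tested (the CPM and the share of each member in WT and in KO), 2 held a library far from the others by Dixon's criterion, where chance flags about 1 in 20, and both concern Myh6, the atrial chain with few reads. In WT replicate 1 Myh6 was at 3.83 CPM, and the other 4 WT libraries lay between 0.432 and 0.912 CPM. In KO replicate 5 the share of Myh6 in the summed FPKM was 0.0779%, and the other 5 KO libraries lay between 0.0145% and 0.0367%. That share rested on 11 reads. Neither Myh13 nor any other member was flagged.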

How the results depend on the processing

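No alternative called a member. Counts of genes called at an adjusted p under 0.1 were 0 throughout, leave-one-out included (0 to 0), except 1 with the likelihood-ratio test and 2 with DESeq2. Replicate numbers did not pair the libraries: 3 of 5 same-numbered pairs of WT and KO libraries had deviations correlated over 0.1 (range -0.332 to 0.633), and 1 KO library matched its own number best. With the replicate block, and without KO replicate 6, 0 genes and 0 members were called, and Myh3 came to 0.26 and Myh7 to 0.17 (log2 fold change). Without TMM factors Myh3 was at 0.024. With the common sarcomere level as a covariate, chosen after the data were seen, Myh1 was at 0.075, Myh2 at 0.10, Myh3 at 0.32, Myh7 at 0.50, Myh8 at 0.12 and Myh13 at 0.98. Without each library in turn, Myh2 ran from -0.76 to 0.061, Myh3 from -0.23 to 0.17 and Myh7 from -0.60 to 0.24. The relations with the common sarcomere level were positive for all 8 members under each alternative run. Depth limits Myh6 and the 3 libraries with 26 to 59 reads of Myh13. The 95% intervals describe the mean difference between the genotypes, not the range of the libraries, and that of Myh13 was -2.97 to 2.07.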

Other observations

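Other RNAs from the myosin loci were also read. 2310065F04Rik, a long noncoding RNA between Myh3 and Myh2 on the opposite strand, ran from 0.821 CPM in WT replicate 3 to 13.4 CPM in WT replicate 2. Its r was 0.911 with Myh13, 0.952 with the summed CPM of the 8 members and 0.956 with the common sarcomere level. Myhas, an antisense RNA that overlaps 19 exons of Myh1, ran from 1.14 to 9.63 CPM, and reads from the 13320 bases it shares with the Myh1 locus cannot be given to one strand or the other in such a library. Mir208a and Mir208b, the hairpins within Myh6 and Myh7, and Mir499 were listed at 0 in all libraries, and Mhrt, antisense to Myh7, did not exceed 0.0824 CPM.

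Among muscle regulators, 10 of 12 passed the filter and 0 were called between KO and WT. Tbx15 had a slope of 1.17 on the common sarcomere level and Myf6 of 0.773, while Mef2c, at 0.177, varied little with it. The 5 developmental genes tested had a median slope of 0.469, from -0.168 for Ncam1 and 0.016 for Dlk1 to 1.40 for Actc1. Actc1, the cardiac and fetal actin, spanned 24.0-fold, from 12.1 CPM in WT replicate 3 to 291 CPM in KO replicate 1. Chrng, the fetal receptor subunit, was at 3.76 CPM in WT replicate 4 and at or under 0.41 CPM in the other 10 libraries (named after its values were seen).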
